A study of Danio rerio with 6 samples.

Results

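The 45 genes described here encode the machinery that copies chromosomal DNA, and they were read from a raw RNA-seq count table of 32105 zebrafish genes. They were chosen by name for their known roles, with earlier results of these data known. The list holds 9 genes of origin licensing, 11 of the replicative helicase, 11 of the polymerases and the single-strand binding complex, 10 of the sliding clamp, its loader and the processing of new strands, and 4 of nucleotide supply. All 45 symbols could be matched to a row of the table. The study asked what loss of Ikaros, a zinc finger transcription factor of blood cells encoded by *ikzf1*, does to haematopoietic differentiation.

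The first group comprised 3 homozygous mutants for the fr105 allele of *ikzf1* (replicates 1 to 3), a CRISPR/Cas9 deletion that shifts the frame and leaves a protein with only the first zinc finger. The second comprised 3 homozygous wild-type siblings (replicates 4 to 6). Both groups are labelled as whole body at 5 days post fertilization (5 dpf) and as a mixture of wild-type strains, and the methods describe 3 individual fish per genotype, homogenised before they were genotyped. The mutants carry a single deletion allele in all of their cells. In bulk RNA, more cells of a type and more RNA per cell cannot be told apart. The targeted gene itself had 53145, 44700 and 29104 counts in the fr105 mutants, against 8746, 6776 and 10579 in the siblings, and its log2 fold change of 2.37 (standard error 0.23, edgeR adjusted p = 0.000362) was summed over the whole gene and does not separate deleted from retained exons.

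Total counts were between 34759504 and 38383935 in mutant libraries, and between 38177112 and 39404324 in wild-type libraries. No pair of libraries agreed within sampling noise. The label was checked against genes that define tissues of a whole larva. Of 6 skeletal muscle genes listed, 3 could be matched, 1 of these was at 0 in every library and none exceeded 8 counts anywhere. Of 6 lens genes, 3 could be matched, 2 were at 0 and none exceeded 6 counts. Of 5 kidney tubule genes, 2 could be matched. For *cdh17* the counts were 106 to 248 in mutants and 64 to 132 in wild type, and for *cubn* 16 to 32 and 22 to 32. All 4 skin genes could be matched, 1 was at 0 and none exceeded 108 counts. Markers of erythroid cells (11 of 12 matched) took 2.74 to 3.55% of the counts in mutants and 1.33 to 3.03% in wild type, and markers of neutrophils (7 of 7) took 3.97 to 5.49% in mutants and 2.68 to 4.02% in wild type. The labels whole body and 5 dpf are kept below, but the matched genes of muscle and lens were at or near 0, unlike in a whole larva. The tissue that was sampled is thus uncertain, and the levels below should not be read as those of a whole larva. The labelled age was not checked separately and calls for the same caution.

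Before a chromosome is copied, the origin recognition complex (ORC) binds replication origins and, with Cdc6 and Cdt1, loads the ring of Mcm proteins that will become the helicase; geminin binds Cdt1 so that origins are not loaded again in the same cycle. In S phase, Cdc45 and the GINS complex join the Mcm ring, polymerase alpha with primase starts each strand, polymerases epsilon and delta extend the leading and lagging strands, and PCNA, a ring loaded by replication factor C (RFC), holds them on the template. Fen1, Dna2 and Lig1 trim and join the fragments of the lagging strand, while ribonucleotide reductase, thymidylate synthase and dihydrofolate reductase supply the building blocks. Most of these genes are transcribed in cells that enter S phase, many under control of E2F factors, and are low in cells that have left the cycle.

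Genes of every replication step were higher in fr105 mutants. The paper already lists DNA replication among the pathways enriched in the upregulated genes of these mutants. Of the 45 genes, 31 were called higher, 0 were called lower and 14 did not pass an adjusted p of 0.05 (edgeR's quasi-likelihood F test, two-sided, with Benjamini-Hochberg adjustment over all 16630 genes tested). Over all genes tested, 11.0% were called higher and 8.76% were called lower. All 45 estimates were above 0, with a median log2 fold change of 0.64 and a range from 0.10 to 1.39, whereas the median over all genes tested was -0.0048. In 43 of the 45 genes all mutant libraries exceeded all wild-type libraries, an order seen in 21.3% of all genes tested. At an unadjusted p of 0.05, 43 genes differed and all of them were higher in mutants. Of all 16630 genes tested, 5937 differed at that threshold, and 2820 of these were lower. DESeq2 called 40 of the 45 higher, including the 31 called by edgeR, and 0 lower. It called 14.2% of all genes tested higher.

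**Figure D1:**
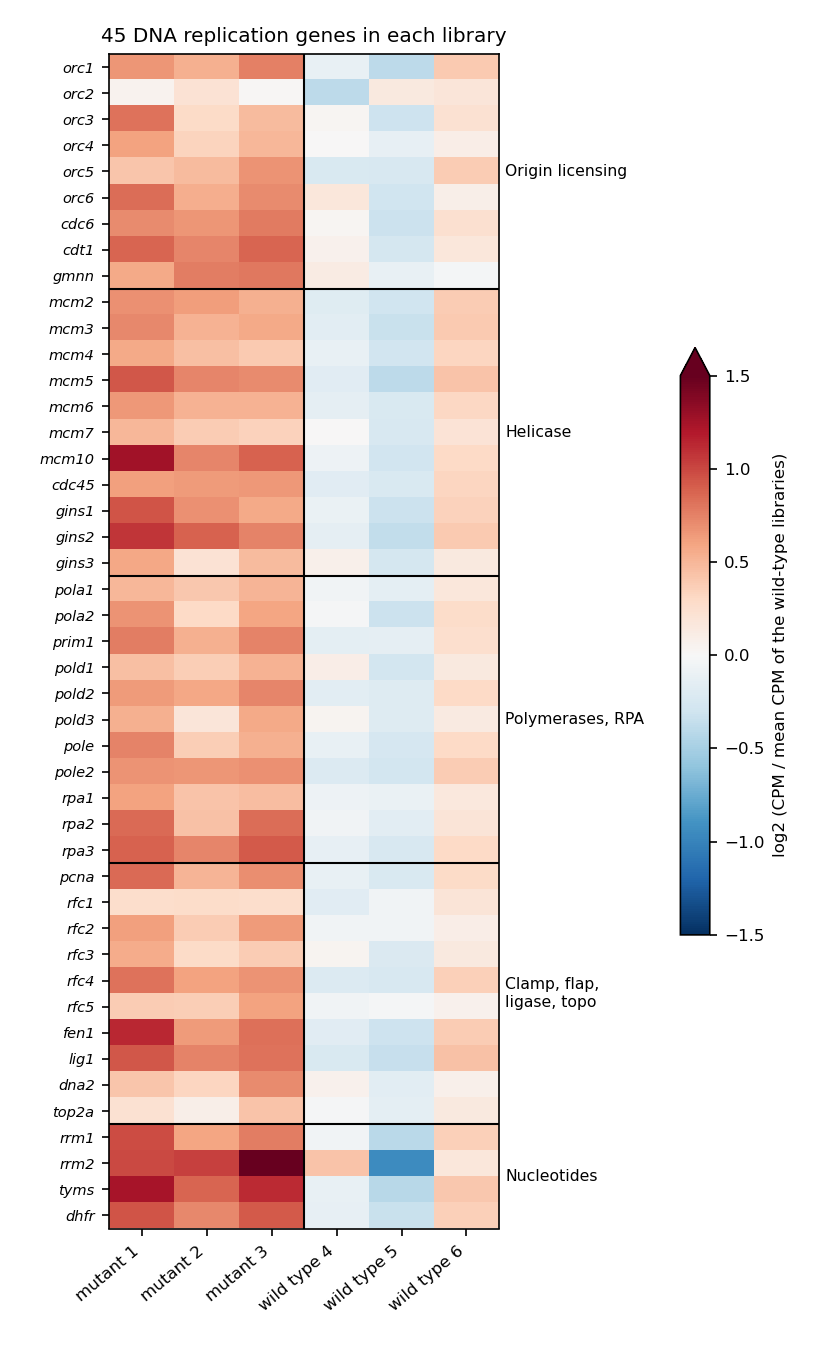
Level of each of the 45 replication genes (rows, grouped by step) in each library (columns), as log2 of the scaled level (CPM) over the mean of the 3 wild-type libraries. The 3 mutant columns are above that mean in all 45 genes, wild-type replicate 5 is below it in all but 1 gene and wild-type replicate 6 is above it in 44.

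The libraries of a group kept nearly the same order from gene to gene. Replicate 6 was the highest wild-type library in 42 of the 45 genes and replicate 5 the lowest in 41, while among mutants replicate 1 was highest in 26 and replicate 2 lowest in 32. Relative to the wild-type mean of each gene, the median level was 1.59, 1.44 and 1.59 in mutant replicates 1, 2 and 3, against 0.93, 0.84 and 1.21 in wild-type replicates 4, 5 and 6. Together the 45 genes took 0.255, 0.218 and 0.247% of the counts in mutants, against 0.152, 0.134 and 0.194% in wild type. The groups were thus apart in this sum, and wild-type replicate 6 lay closest to the mutants.

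With 1 library left out, the number of replication genes called higher was 8 without mutant replicate 1, 24 without mutant replicate 2 and 9 without mutant replicate 3. Leaving out a sibling gave 14 (replicate 4), 9 (replicate 5) and 36 (replicate 6). In the same 6 fits, between 6.85 and 9.37% of all genes tested were called higher, and the median log2 fold change of the 45 genes stayed between 0.53 and 0.83. The number of calls thus depended on which library was left out. It fell most without mutant replicates 1 or 3 or wild-type replicates 4 or 5. These fits have fewer libraries, and their share of calls over all genes tested was also lower. The median of the 45 genes was 0.61 without mutant replicate 1 and 0.62 without mutant replicate 3, against 0.64 with all libraries. It moved most without wild-type replicate 6, to 0.83. All 45 estimates stayed above 0 in these fits except that of *orc2* without wild-type replicate 4 (-0.062). Of the 31 genes, 5 were called in every one of the 6 fits: *cdt1*, *gmnn*, *prim1*, *rpa3* and *tyms*.

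**Figure D2:**
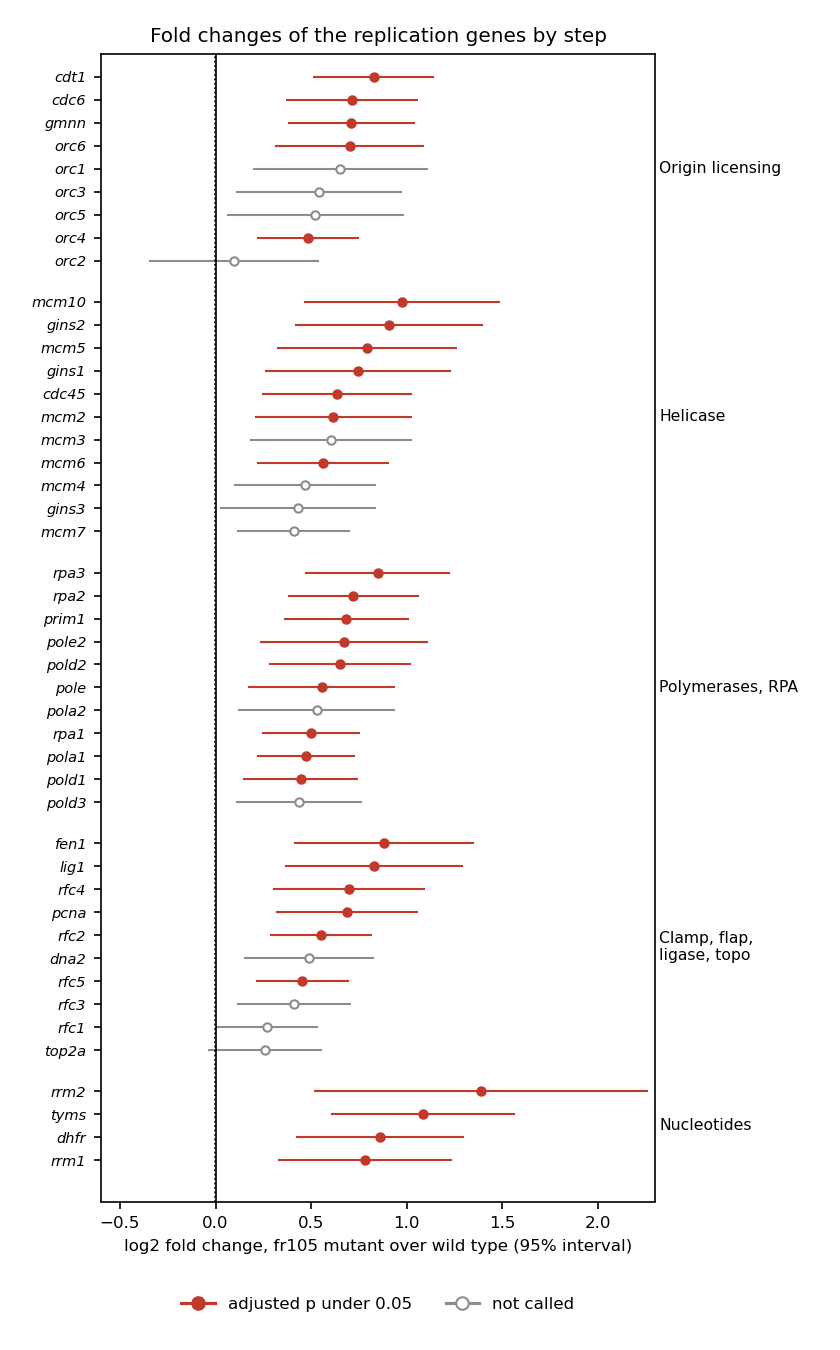
Log2 fold change of each replication gene, fr105 mutant over wild type, with its 95% interval from edgeR, grouped by step and ordered by size within a step. Filled red points are the 31 genes with an adjusted p under 0.05, open grey points the 14 others, and the intervals of *orc2* and *top2a* reach below 0.

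Among the 9 genes of origin licensing, the loading factors and their inhibitor were higher in mutants, while 4 of the 6 ORC subunits did not pass the test. The 5 genes called higher were *cdt1*, *cdc6*, *gmnn*, *orc6* and *orc4*, and the median log2 fold change of the step was 0.65. *cdt1* (ENSDARG00000051854), which brings the Mcm ring to origins, had 977, 831 and 894 counts in the mutants, against 556, 447 and 629 in the siblings. The scaled level, in CPM (counts scaled to library size with the TMM method), was 24.7 ± 1.41 CPM in the mutants and 13.9 ± 2.1 CPM in the siblings (mean ± SD of 3 libraries each), a log2 fold change of 0.83 (SE 0.13, edgeR adjusted p = 0.00483). All mutants exceeded all siblings, and this was the largest change of the step. *gmnn* (ENSDARG00000035957), which encodes geminin, had 344, 372 and 367 counts in the mutants, against 254, 217 and 239 in the siblings, or 9.94 ± 0.835 against 6.07 ± 0.51 CPM (mean ± SD of 3 libraries each). Its log2 fold change was 0.71 (SE 0.14, edgeR adjusted p = 0.0113), so the inhibitor and its target were both higher in all 3 mutants. The ratio of *gmnn* to *cdt1* counts was 0.352, 0.448 and 0.411 in mutants, against 0.457, 0.486 and 0.38 in wild type, and the groups overlapped in it.

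*cdc6*, an ATPase that works with ORC, had a log2 fold change of 0.71 (SE 0.15, edgeR adjusted p = 0.0131), and *orc6*, the smallest ORC subunit, one of 0.70 (SE 0.17, edgeR adjusted p = 0.0227). The smallest called change of the step was in *orc4* (ENSDARG00000101161), an ATPase subunit of ORC. It had 1176, 917 and 991 counts in the mutants, against 777, 714 and 867 in the siblings, 28.2 ± 2.61 against 20.1 ± 1.55 CPM (mean ± SD of 3 libraries each), and a log2 fold change of 0.48 (SE 0.11, edgeR adjusted p = 0.0215). All mutant libraries were above the wild-type libraries.

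The 4 ORC subunits that were not called differed in how close they came to the threshold. *orc1* (ENSDARG00000039217), a subunit that is degraded and remade in each cycle of human cells, had 778, 667 and 756 counts in the mutants, against 455, 375 and 675 in the siblings. Its level was 20.2 ± 1.55 against 12.8 ± 3.64 CPM (mean ± SD of 3 libraries each), with an estimate of 0.65 (95% interval 0.20 to 1.11, edgeR adjusted p = 0.0515). The groups did not overlap, and wild-type replicate 6 was just below mutant replicate 2. *orc3* (ENSDARG00000008805), part of the ORC core, had 761, 499 and 551 counts in the mutants, against 444, 353 and 532 in the siblings. At 16.5 ± 3.06 against 11.3 ± 2.06 CPM (mean ± SD of 3 libraries each), the estimate was 0.54 (95% interval 0.11 to 0.97, edgeR adjusted p = 0.0753), with mutant replicate 2 again next to wild-type replicate 6.

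*orc5* (ENSDARG00000021579), another ATPase-fold subunit, had 366, 358 and 399 counts in the mutants, against 234, 233 and 375 in the siblings, 10.3 ± 0.98 against 7.17 ± 1.89 CPM (mean ± SD of 3 libraries each), and an estimate of 0.52 (95% interval 0.06 to 0.98, edgeR adjusted p = 0.101). Its raw counts overlapped, since the 375 of wild-type replicate 6 exceeded 2 of the mutant counts, but after scaling the mutants were all higher. *orc2* (ENSDARG00000101465), whose protein holds the ORC core together with Orc3, stood apart from the other members. It had 224, 236 and 200 counts in the mutants, against 165, 241 and 256 in the siblings, 6.04 ± 0.452 against 5.65 ± 1.16 CPM (mean ± SD of 3 libraries each). The estimate of 0.10 was the smallest of the 45 (95% interval -0.34 to 0.54, edgeR adjusted p = 0.751), the groups overlapped, and only wild-type replicate 4 was low. Without that replicate the estimate was -0.062.

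Of the 11 helicase genes, 7 were called higher, with a median log2 fold change of 0.61. The 6 Mcm ring genes had estimates between 0.41 and 0.79, of which 3 were called. The other 5 genes of the step, *cdc45*, *mcm10* and the GINS genes, had estimates between 0.43 and 0.97, and all but *gins3* were called. In all 11 genes the mutant libraries were above the wild-type libraries. The largest change was in *mcm10* (ENSDARG00000045815), a factor that activates the assembled helicase. It had 322, 210 and 228 counts in the mutants, against 128, 111 and 174 in the siblings, and 6.92 ± 1.33 against 3.52 ± 0.745 CPM (mean ± SD of 3 libraries each). The log2 fold change was 0.97 (SE 0.22, edgeR adjusted p = 0.0187), with mutant replicate 1 highest of all libraries.

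The 6 genes of the Mcm ring encode its different subunits, which occur in equal numbers in the complex. *mcm2* (ENSDARG00000102798) had 4958, 4477 and 4083 counts in the mutants, against 2731, 2524 and 4220 in the siblings, 124 ± 6.36 against 80.7 ± 21.4 CPM (mean ± SD of 3 libraries each), a log2 fold change of 0.61 (SE 0.18, edgeR adjusted p = 0.0442). *mcm5* (ENSDARG00000019507), whose estimate was the largest of the ring, had 4380, 3585 and 3434 counts in the mutants, against 2042, 1768 and 3249 in the siblings, 104 ± 8.92 against 60.1 ± 18.5 CPM (mean ± SD of 3 libraries each), a log2 fold change of 0.79 (SE 0.20, edgeR adjusted p = 0.0295). *mcm6* (ENSDARG00000057683), the smallest called change of the step, had 4472, 3852 and 3734 counts in the mutants, against 2613, 2444 and 3697 in the siblings, 110.2 ± 5.66 against 74.6 ± 15.4 CPM (mean ± SD of 3 libraries each), a log2 fold change of 0.56 (SE 0.15, edgeR adjusted p = 0.0328). In these 3 genes wild-type replicate 6 lay near the mutant range and replicates 4 and 5 well below it. A second gene identifier that shares the *mcm6* symbol had 6, 8 and 4 counts in the mutants, against 16, 27 and 6 in the siblings. These were too few for a test. The methods name no setting for reads shared between such copies, which may be missing from both counts.

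The other ring genes missed the threshold. *mcm3* (ENSDARG00000024204) had 3069, 2510 and 2527 counts in the mutants, against 1671, 1496 and 2562 in the siblings, 74.05 ± 5.4 against 48.8 ± 13.3 CPM (mean ± SD of 3 libraries each), and an estimate of 0.60 (95% interval 0.18 to 1.02, edgeR adjusted p = 0.0516). Wild-type replicate 6 had more raw counts than 2 mutants, but all mutants were higher after scaling. *mcm4* (ENSDARG00000040041), part of the ring's catalytic core, had 4692, 4054 and 3782 counts in the mutants, against 2926, 2620 and 4166 in the siblings, 114 ± 7.31 against 82.7 ± 18.8 CPM (mean ± SD of 3 libraries each), and an estimate of 0.47 (95% interval 0.10 to 0.83, edgeR adjusted p = 0.0742). *mcm7* (ENSDARG00000101180), of the same core, had 4344, 3749 and 3560 counts in the mutants, against 3080, 2624 and 3698 in the siblings, 106 ± 6.11 against 80.2 ± 12.04 CPM (mean ± SD of 3 libraries each), and the smallest estimate of the ring at 0.41 (95% interval 0.12 to 0.70, edgeR adjusted p = 0.0554). After scaling, the groups were apart in both genes. The intervals of the 6 ring genes overlapped one another, and DESeq2 called all 6. The ratio of *mcm10* counts to the mean count of the 6 ring genes was 0.0746, 0.0567 and 0.0648 in mutants, against 0.051, 0.0494 and 0.0484 in wild type; the groups were apart, and no test of this ratio was made.

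Cdc45 and GINS complete the active helicase. *cdc45* had a log2 fold change of 0.64 (SE 0.17, edgeR adjusted p = 0.0329) and was at 13.1 ± 0.139 CPM in mutants, a narrow spread, against 8.42 ± 1.84 in wild type (mean ± SD of 3 libraries each). Among the GINS genes, *gins2* changed by 0.91 (SE 0.21, edgeR adjusted p = 0.0211) and *gins1* by 0.75 (SE 0.21, edgeR adjusted p = 0.0406) on the log2 scale. *gins3* (ENSDARG00000038847) had 317, 232 and 268 counts in the mutants, against 224, 178 and 246 in the siblings, 7.46 ± 0.93 against 5.53 ± 0.804 CPM (mean ± SD of 3 libraries each). Its estimate of 0.43 did not pass the test (95% interval 0.03 to 0.83, edgeR adjusted p = 0.119), and mutant replicate 2 and wild-type replicate 6 were close to each other.

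Of the 11 genes of the polymerases and of replication protein A (RPA), the complex that coats single-stranded DNA, 9 were called higher, and the step had a median log2 fold change of 0.56. The 3 RPA genes and both polymerase epsilon genes were called, as were 2 of the 3 genes each of polymerase alpha with primase and of polymerase delta. The mutant libraries were above the wild-type libraries in all 11. *rpa3* (ENSDARG00000002613), the smallest RPA subunit, had the largest change, with 692, 585 and 644 counts in the mutants, against 344, 318 and 483 in the siblings. It stood at 17.6 ± 1.16 against 9.76 ± 2.01 CPM (mean ± SD of 3 libraries each), a log2 fold change of 0.85 (SE 0.16, edgeR adjusted p = 0.00957). The other RPA genes followed with 0.72 for *rpa2* (SE 0.15, edgeR adjusted p = 0.0122) and 0.50 for *rpa1*, the large subunit that binds DNA (SE 0.11, edgeR adjusted p = 0.0164).

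*prim1*, which encodes the catalytic primase subunit that makes the RNA primer, had a log2 fold change of 0.68 (SE 0.14, edgeR adjusted p = 0.0121), and *pola1*, the catalytic subunit of polymerase alpha, one of 0.47 (SE 0.11, edgeR adjusted p = 0.02). For polymerase epsilon, the catalytic *pole* changed by 0.56 (SE 0.16, edgeR adjusted p = 0.049) and its partner *pole2* by 0.67 (SE 0.19, edgeR adjusted p = 0.0417). For polymerase delta, the accessory *pold2* changed by 0.65 (SE 0.16, edgeR adjusted p = 0.0251). The catalytic *pold1* (ENSDARG00000027689) had the smallest called change of the step, with 2024, 1799 and 1943 counts in the mutants, against 1591, 1232 and 1719 in the siblings, 52.8 ± 2.79 against 38.8 ± 5.94 CPM (mean ± SD of 3 libraries each) and a log2 fold change of 0.44 (SE 0.13, edgeR adjusted p = 0.0453).

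Accessory subunits accounted for both genes of this step that were not called. *pola2* (ENSDARG00000015070), the regulatory subunit of polymerase alpha, had 742, 539 and 638 counts in the mutants, against 461, 374 and 590 in the siblings, 17.5 ± 2.28 against 12.1 ± 2.5 CPM (mean ± SD of 3 libraries each), and an estimate of 0.53 (95% interval 0.12 to 0.94, edgeR adjusted p = 0.0699). *pold3* (ENSDARG00000076169), which links polymerase delta to PCNA, had 1132, 829 and 1055 counts in the mutants, against 803, 689 and 895 in the siblings, 27.6 ± 3.95 against 20.4 ± 2.27 CPM (mean ± SD of 3 libraries each), and an estimate of 0.44 (95% interval 0.11 to 0.76, edgeR adjusted p = 0.0634). In both, mutant replicate 2 was the lowest mutant and had fewer raw counts than wild-type replicate 6.

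At the clamp and behind the fork, 6 of 10 genes were called higher, and the median change was 0.52 on the log2 scale. The clamp itself, the flap nuclease, the ligase and 3 of the 5 clamp loader genes were called, and *dna2*, *rfc1*, *rfc3* and *top2a* were not. *pcna* (ENSDARG00000054155), the sliding clamp, had 15642, 11638 and 12845 counts in the mutants, against 8093, 7490 and 11095 in the siblings. Its level was 366 ± 42.4 against 227 ± 43.4 CPM (mean ± SD of 3 libraries each), a log2 fold change of 0.69 (SE 0.16, edgeR adjusted p = 0.0201). Wild-type replicate 6 came close to mutant replicate 2, and replicates 4 and 5 were far below. The largest change of the step was in *fen1* (ENSDARG00000011404), the nuclease that cuts the flap off each lagging-strand fragment. It had 2284, 1518 and 1682 counts in the mutants, against 928, 845 and 1416 in the siblings, 49.97 ± 8.86 against 27.1 ± 7.15 CPM (mean ± SD of 3 libraries each), and a log2 fold change of 0.88 (SE 0.20, edgeR adjusted p = 0.0199). *lig1*, the ligase that seals those fragments, changed by 0.83 (SE 0.20, edgeR adjusted p = 0.024).

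The RFC subunits open the clamp and close it around DNA. *rfc4* had a log2 fold change of 0.70 (SE 0.17, edgeR adjusted p = 0.0253) and *rfc2* one of 0.55 (SE 0.11, edgeR adjusted p = 0.0127). *rfc5* (ENSDARG00000035634) was the smallest called change, with 1465, 1365 and 1562 counts in the mutants, against 1086, 1118 and 1237 in the siblings, 40.3 ± 3.81 against 29.4 ± 1.29 CPM (mean ± SD of 3 libraries each) and a log2 fold change of 0.45 (SE 0.10, edgeR adjusted p = 0.0195). *rfc3* (ENSDARG00000055969) had 1296, 1016 and 1050 counts in the mutants, against 910, 767 and 1026 in the siblings, 30.7 ± 2.85 against 23.1 ± 2.9 CPM (mean ± SD of 3 libraries each), and an estimate of 0.41 (95% interval 0.12 to 0.70, edgeR adjusted p = 0.0552). *rfc1* (ENSDARG00000054799), the large subunit, was nearly the same in the 3 mutants and more variable in wild type. It had 1515, 1431 and 1380 counts in the mutants, against 1122, 1222 and 1513 in the siblings, 39.6 ± 0.156 against 32.9 ± 4.34 CPM (mean ± SD of 3 libraries each), and an estimate of 0.27 (95% interval 0.01 to 0.53, edgeR adjusted p = 0.133).

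*dna2* (ENSDARG00000078759), a nuclease and helicase that shortens long flaps, lay on the threshold. It had 532, 467 and 594 counts in the mutants, against 417, 361 and 442 in the siblings, 14.6 ± 2.1 against 10.4 ± 0.917 CPM (mean ± SD of 3 libraries each), and an estimate of 0.49 (95% interval 0.15 to 0.82, edgeR adjusted p = 0.05003). *top2a* (ENSDARG00000024488), the topoisomerase that untangles replicated DNA and is most abundant in G2 phase and mitosis, had 8179, 6953 and 8568 counts in the mutants, against 6877, 6331 and 8054 in the siblings. At 217 ± 26.1 against 182 ± 18.3 CPM (mean ± SD of 3 libraries each), its estimate was 0.26 (95% interval -0.03 to 0.55, edgeR adjusted p = 0.182), and mutant replicate 2 overlapped with wild-type replicate 6. With *orc2*, it was the only member whose groups overlapped after scaling.

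All 4 genes of nucleotide supply were called higher, and their median log2 fold change of 0.97 was above that of each other step, a difference that was not tested. *rrm2* (ENSDARG00000020711), the small subunit of ribonucleotide reductase that is made in S phase, had 1726, 1655 and 3047 counts in the mutants, against 1171, 456 and 1027 in the siblings. It was at 59.4 ± 24.04 CPM in the mutants and 22.7 ± 9.71 CPM in the siblings (mean ± SD of 3 libraries each). The log2 fold change of 1.39 was the largest of the 45 genes and also had the largest standard error (SE 0.38, edgeR adjusted p = 0.0368), with mutant replicate 3 far above the other mutants and wild-type replicate 5 far below the other siblings. Another identifier with the *rrm2* symbol had 3049, 1366 and 1116 counts in the mutants, against 1257, 1735 and 1883 in the siblings, and was not called (log2 fold change 0.26, SE 0.33, edgeR adjusted p = 0.604). Its groups overlapped and mutant replicate 1 was the high library there. Reads shared by the 2 copies may likewise be missing from both counts.

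The large subunit *rrm1* (ENSDARG00000014017) had 5463, 3929 and 4308 counts in the mutants, against 2673, 2113 and 3739 in the siblings, 125 ± 16.8 against 72.6 ± 19.3 CPM (mean ± SD of 3 libraries each), the smallest change of the step at 0.78 (SE 0.19, edgeR adjusted p = 0.0272). The ratio of *rrm2* to *rrm1* counts was 0.316, 0.421 and 0.707 in mutants, against 0.438, 0.216 and 0.275 in wild type, and it overlapped between groups. This ratio leaves out the second *rrm2* identifier, which was at 49.8 ± 25.95 against 41.6 ± 7.66 CPM (mean ± SD of 3 libraries each). It thus does not describe all *rrm2* reads. *tyms*, which makes thymidylate, was at 46.6 ± 5.77 CPM in the mutants and 21.97 ± 6.48 CPM in the siblings (mean ± SD of 3 libraries each), a log2 fold change of 1.08 (SE 0.21, edgeR adjusted p = 0.00937). *dhfr*, which regenerates the folate that thymidylate synthesis uses up, changed by 0.86 (SE 0.19, edgeR adjusted p = 0.0164). In both genes wild-type replicate 6 was the highest sibling and remained below every mutant.

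The 14 genes that were not called by edgeR came from 4 of the 5 steps. DESeq2 called 9 of them (*orc1*, *orc3*, *mcm3*, *mcm4*, *mcm7*, *pola2*, *pold3*, *rfc3* and *dna2*), and 5 were called by neither tool (*orc2*, *orc5*, *gins3*, *rfc1* and *top2a*). Except for *orc2* and *top2a*, their mutant libraries were all above the wild-type libraries.

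Related genes outside the 45 were read in the same way. Of 41 other replication genes listed, 37 could be matched and tested. Of these, 10 were called higher and 0 lower, beside 11.0% and 8.76% over all genes tested. The median log2 fold change of the list was 0.43. No gene of this list was lower at an unadjusted p of 0.05, and DESeq2 called 16 higher and 0 lower. The largest changes were in *gins4*, the remaining GINS subunit (0.99, SE 0.14, edgeR adjusted p = 0.00259), *dscc1*, part of an alternative clamp loader (0.91, SE 0.24, edgeR adjusted p = 0.034), and *rnaseh2c*, a subunit of the nuclease that removes ribonucleotides from DNA (0.82, SE 0.17, edgeR adjusted p = 0.0119). With *gins4*, 3 of the 4 GINS genes were called. The count of 10 was 3 without mutant replicate 1, 4 without mutant replicate 3, and 5 with sibling replicate 4 or 4 with sibling replicate 5 left out. Over all genes tested, 6.85 to 9.37% were called higher in these fits, and 3 of 37 was near that share.

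Of 27 other genes of nucleotide supply listed, 21 could be matched and tested, and the median log2 fold change was 0.15. In this list 4 were called higher and 2 lower, beside 11.0% called higher and 8.76% called lower over all genes tested. The 2 lower calls were thus near the latter share. Higher were *shmt1*, which loads carbon units onto folate (1.00, SE 0.11, edgeR adjusted p = 0.000629), *dck*, the deoxycytidine salvage kinase (0.83, SE 0.20, edgeR adjusted p = 0.0237), and *mthfd2*, a mitochondrial folate enzyme (0.65, SE 0.19, edgeR adjusted p = 0.046), besides *tk1*, a thymidine kinase (0.64, SE 0.15, edgeR adjusted p = 0.0215). Lower were *cad*, which opens pyrimidine synthesis (-0.56, SE 0.12, edgeR adjusted p = 0.0125), and *paics*, an enzyme of purine synthesis (-0.51, SE 0.12, edgeR adjusted p = 0.0227). The count of 4 genes called higher was 1 without mutant replicate 1 or 3 and 2 without wild-type replicate 5 or 6. These counts were near or below the share of all genes tested called higher in the same fits (6.85 to 9.35%).

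Of 35 regulators of cell cycle entry listed, 29 could be matched and 27 tested. Of these 27, 7 were called higher and 2 lower, beside 11.0% and 8.76% over all genes tested. The 2 called lower were thus near the latter share. The median log2 fold change of the list was 0.38. The largest changes were in *cdkn1a*, an inhibitor of cyclin-dependent kinases (1.70, SE 0.26, edgeR adjusted p = 0.00352), *e2f2*, an E2F factor (1.40, SE 0.16, edgeR adjusted p = 0.00077), and *mycb*, a Myc factor (1.20, SE 0.20, edgeR adjusted p = 0.00483). Lower were *ccnd2a*, a D-type cyclin (-0.53, SE 0.13, edgeR adjusted p = 0.0282), and *rbl2*, a pocket protein that represses E2F targets in resting mammalian cells (-0.41, SE 0.12, edgeR adjusted p = 0.0484). Of 20 mitosis genes listed, 18 could be matched and tested, 9 were called higher and 0 lower, with a median of 0.46. No mitosis gene was lower at an unadjusted p of 0.05, and DESeq2 called 11 higher and 0 lower. The kinases *aurka* (0.71, SE 0.16, edgeR adjusted p = 0.0193), *cdk1* (0.70, SE 0.15, edgeR adjusted p = 0.0143) and *plk1* (0.61, SE 0.16, edgeR adjusted p = 0.0348) led this list. The count of 9 mitosis genes was 0 without mutant replicate 1 or 3, 5 without wild-type replicate 4, 2 without replicate 5 and 4 without replicate 6. That of 7 entry regulators was 3 without mutant replicate 1 and 4 without mutant replicate 3. Over all genes tested, 6.85 to 9.37% were called higher in these fits, so 0 of 18 mitosis genes was below that share.

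**Figure D3:**
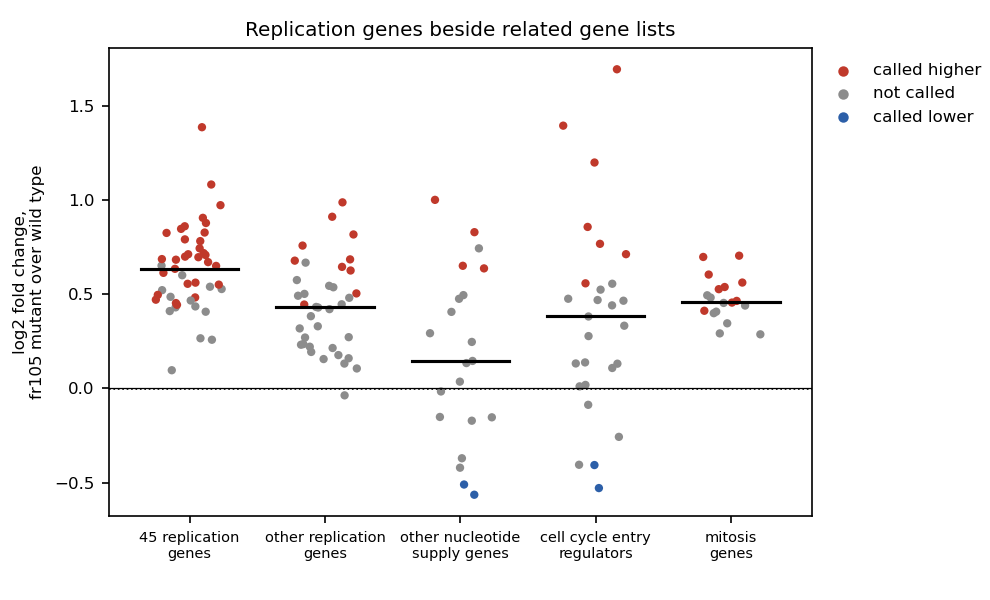
Log2 fold change (fr105 mutant over wild type) of each tested gene in the 45 replication genes and 4 related lists, with the median of each list as a black bar and the median of all genes tested as a dotted line at -0.0048. Points in red were called higher, in blue lower and in grey not called; the medians are 0.64, 0.43, 0.15, 0.38 and 0.46 from left to right.

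Markers of blood cells were read in the same libraries, in which 11.0% of all genes tested were called higher and 8.76% lower. The erythroid markers took 3.18, 2.74 and 3.55% of the counts in mutants, against 3.03, 1.33 and 2.00% in wild type, 3 of 11 were called higher and 0 lower, and the groups overlapped in their sum. Gene by gene, their median log2 fold change was 0.69, all mutants exceeded all siblings in 8 of the 11, and DESeq2 called 7 higher. Over all genes tested, the shares for that order and for higher calls by DESeq2 were 21.3% and 14.2%. The globin gene *hbaa2* had an estimate of -0.81 and was not called. It had 284835 counts in wild-type replicate 4, against 58160 to 115928 in mutants, and weighs heavily in the sum. The neutrophil markers took 5.49, 3.97 and 4.4% in mutants, against 2.68, 3.43 and 4.02% in wild type, 1 of 7 was called higher and 0 lower, and these groups overlapped too. In 2 of these 7 genes all mutants exceeded all siblings, near the share of 21.3% over all genes tested. Of the 7, *mmp9* had 287009, 68889 and 71878 counts in the mutants, against 96110, 53417 and 84473 in the siblings. For *mmp13a* the counts were 255783, 86588 and 117407 against 194170, 112067 and 155884. Both genes weigh heavily in the neutrophil sum and neither was called. The sum without them was not examined. Markers of B cells took 0.0147, 0.0124 and 0.0183% in mutants, against 0.0384, 0.0645 and 0.0398% in wild type, and 5 of 6 were called lower. Markers of T cells took 0.0118, 0.0174 and 0.0107% in mutants, against 0.0329, 0.0319 and 0.0305% in wild type, and 5 of 8 were called lower. Both lymphoid sums were lower in all 3 mutants. Markers of stem and progenitor cells took 0.0327 to 0.0384% in mutants and 0.0379 to 0.0406% in wild type, with 1 of 7 called higher, and thrombocyte markers 0.0299 to 0.0402% in mutants and 0.027 to 0.0289% in wild type, with 3 of 5 called higher. Of the macrophage markers, 4 of 6 could be matched, 2 were called higher, and they took 0.15 to 0.171% in mutants and 0.146 to 0.17% in wild type.

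Among siblings, replicate 5 was lowest both in the erythroid sum and in 41 of the 45 replication genes. Replicate 4 was highest in the erythroid sum and replicate 6 in 42 of the replication genes. In the neutrophil sum, replicate 6 was the highest sibling (4.02%) and replicate 4 the lowest (2.68%). Among mutants, replicate 1 was highest and replicate 2 lowest both in the neutrophil sum and in the sum of the replication genes. The part of any of these cell types in the levels of the replication genes was not tested.

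**Figure D4:**
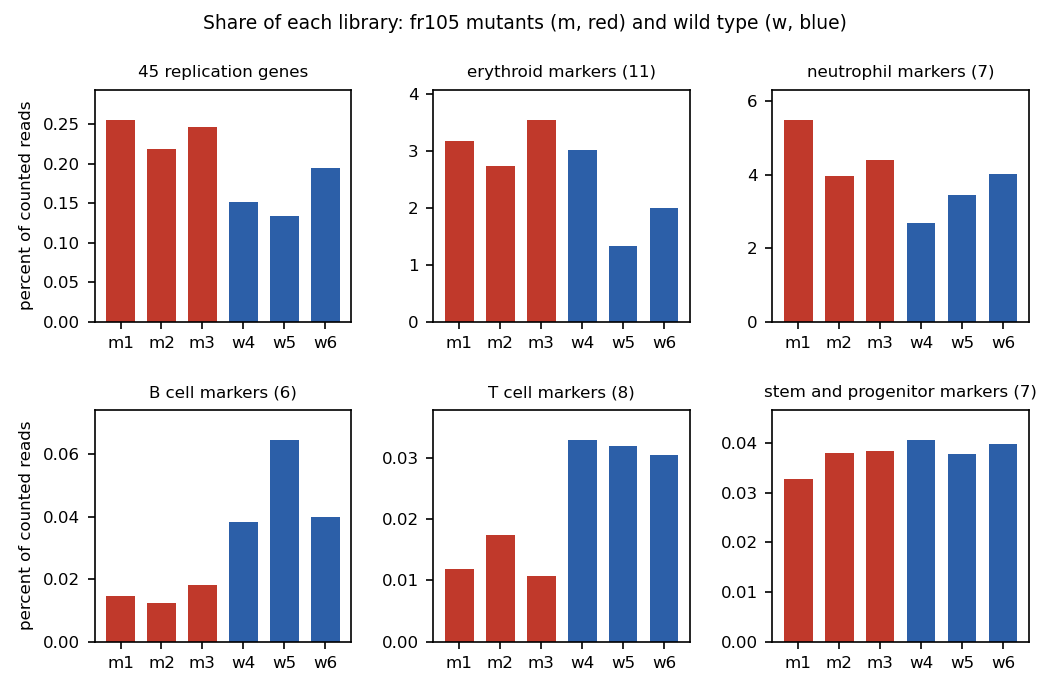
Percent of each library's counted reads taken by the 45 replication genes and by markers of 5 blood cell types (number of matched genes in brackets), for fr105 mutant libraries (m1 to m3, red) and wild-type libraries (w4 to w6, blue). The replication genes took 0.218 to 0.255% in mutants and 0.134 to 0.194% in wild type, and each panel has its own axis from 0.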

How the data were processed

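RNA-seq was analysed from 3 fr105 mutants and 3 wild-type siblings, grouped by the titles of their labels. Poly-A RNA was made into stranded, paired-end libraries. The authors aligned reads with STAR 2.5.2b-1 to the Ensembl Zv10 annotation (GRCz10) and summarised the alignments to genes using featureCounts 1.6.0.1, and the deposited values are raw counts, not normalized. The strand setting is not given in the sources used here, so reads of genes that overlap on opposite strands may not be told apart. Even values made up 78.0 to 79.9% of the counts from 1 to 4, a pattern that counting each mate separately would give. Total counts were 34759504 to 39404324 per library, and standard errors give the precision at this depth.

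Gene symbols came from the study's tables of IDs and names and from a table of gene names. Counts were tested with edgeR (version 4.0.16, R 4.3.3; scaled by TMM and filtered by filterByExpr with at least 10 counts in as many libraries as a group has and 15 in total, quasi-likelihood F test, two-sided, Benjamini-Hochberg adjustment over 16630 genes, threshold 0.05). Standard errors were taken as the absolute log2 estimate over the root of the F statistic, and intervals are 95% t intervals. Scaled levels are CPM with TMM factors. The smallest two-sided p of an exact permutation test with 3 against 3 is 0.1, so none was used. p-values measure the spread between these libraries, which the methods describe as individual fish. The test was checked on simulated counts drawn independently for each gene. That check does not cover genes that vary together across libraries. Tables were made with Python 3.11.15 and pandas 2.3.3, and figures with matplotlib 3.10.9.

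The 45 genes and the other lists were chosen with earlier results of these data known. All 45 were named. Full values were given, in each step, for the called genes with the largest and smallest change, for each gene not called or with overlapping groups, and for *mcm2* to *mcm7*, *pcna*, *gmnn*, *cdt1*, *rrm1* and *rrm2*; from each other list, the 3 called genes with the largest absolute change and each one called lower were named, and *tk1* was added after its value was seen. Alternatives were DESeq2 1.42.0, other scalings and filters, a robust fit, halved counts, 20 abundant genes left out, stricter thresholds and each library left out. IT325 fish, sequences, promoters and gene lengths were not analysed here.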

Additional observations from a re-analysis of the deposited data

How the results depend on the processing

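Of the 45 replication genes, 31 were called higher, and the count was 40 with DESeq2, 32 with RLE, 26 with upper quartile and 28 with library size scaling, 33 without a low-count filter, 30 with a mean of at least 50 counts, 33 in a robust fit, 34 without the 20 most abundant genes, 34 with halved counts and 26 with a minimum size of 0.5 on the log2 scale. Under these alternatives, 7.41% (no low-count filter) to 14.2% (DESeq2) of all genes tested were called higher. At an adjusted p of 0.01 the count of replication genes was 3 of 45, close to the share of all genes tested that was called higher there (5.36%), and 2 other replication genes, 1 other nucleotide supply gene, 3 entry regulators and 0 mitosis genes were called higher. Calls in either direction over all genes tested numbered 1399 at that threshold. Other replication genes called higher were 16 with DESeq2 and 6 with library size or upper quartile scaling, and mitosis genes were 5 with either scaling. In the fits that dropped a single library, the counts ranged from 8 to 36 for the replication genes called higher, 3 to 14 for other replication genes, 1 to 5 for other nucleotide supply genes, 3 to 9 for entry regulators and 0 to 12 for mitosis genes, and from 1927 to 2837 for calls in either direction over all genes tested, in fits with fewer samples than the full comparison. Of all genes tested, 6.85 to 9.37% were called higher in them. The estimate of *orc2* ranged from -0.062 (without wild-type replicate 4) to 0.19 in these fits, and the negative value was the only 1 of 675 estimates of replication genes under an alternative that was below 0. At an adjusted p of 0.05, 26 of the 31 genes were called in all 9 fits that kept every library, and 5 in every alternative fit. Of those 5, *gmnn* and *prim1* did not pass the threshold of 0.01 in the main fit. The number of replication genes called lower was 0 under every alternative. The median log2 fold change of all genes moved most with upper quartile scaling, to -0.05. With 3 libraries per group, replication genes with estimates as small as 0.44 were called and others with estimates up to 0.65 were not. No paired analysis was possible because the groups share no replicate numbers.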
